A study of Homo sapiens with 14 samples.

Results

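The replication-dependent histone genes are the genes that supply new histones while DNA is copied. They were followed here in LNCaP, an established line of androgen-responsive human prostate cancer cells grown from a metastasis. A gene was taken when its current symbol is H1-1 to H1-6, or starts with H2AC, H2BC, H3C or H4C and goes on with a number, after older symbols such as HIST1H4H had been updated. This gave 60 genes from 66 probes, of 14545 named genes on the array and 27648 probes in all. They are 54 core histone genes (15 for H2A, 17 for H2B, 9 for H3 and 13 for H4) and 6 linker histone genes. Of 70 protein-coding genes under this rule in the RefSeq gene table, 60 had a probe as named here. The other 10 were not analysed under their own names. H3C2 and H4C12 are among these, although probes with their older symbols HIST1H3B and HIST1H4K were taken, by accession, as H3C4 and H4C11. The rule uses names and no measured value, but it was set with earlier results of these data known.

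All cells were grown for 36 h and then kept for 48 h in medium without steroids. Cells of the treated groups then received, for 24 h, 1 nM R1881 (methyltrienolone, a synthetic androgen), cycloheximide at 25 µg/ml (CHX, which blocks elongation on ribosomes and so protein synthesis), or R1881 and CHX added together. The control group was steroid-deprived LNCaP without either agent, so the steroid deprivation is common to every group. Each treatment was compared with the control in 2 independent culture experiments on 2-colour arrays, and each of these comparisons was hybridised again with the Cy3 and Cy5 dyes exchanged, which gives 4 arrays per comparison. A further comparison set CHX plus R1881 directly against CHX on 2 arrays, the dye orientations of 1 culture experiment, and has no replicate. All groups come from 1 cell line.

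Nucleosomes wind DNA around an octamer of the core histones H2A, H2B, H3 and H4, and a linker histone of the H1 family binds where the DNA enters and leaves. The replication-dependent genes lie in clusters, mainly on chromosome 6 and chromosome 1, have no introns as a rule, and are transcribed in S phase with the coactivator NPAT. Their mRNAs typically end in a stem-loop in place of a poly(A) tail, and the stem-loop binding protein SLBP carries them through processing, translation and decay. Decay of these mRNAs at the end of DNA synthesis depends on their translation, and inhibitors of protein synthesis are known to delay it. Several members can also give polyadenylated transcripts, mostly in cells that have stopped dividing.

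Every value below is a log2 ratio, treated over the other RNA, and n = 2 culture experiments, with the 2 dye orientations of each averaged first. The labels do not state which RNA is the numerator, nor the base of the logarithm. The deposited values were multiplied by −1 because 20 of 25 measured androgen-induced genes lay below 0 as deposited after R1881, so the direction of every signed value is likely, not certain. With this sign TMPRSS2, an androgen-induced protease gene, had 1.65 ± 0.17 after R1881 (SD, limma adjusted p = 0.0202), KLK3 had 0.98, KLK2 had 0.77 and FKBP5 had 0.69. Only ratios were used here, so the level of a transcript, its signal over background and the markers of the cell line could not be examined. The 3 comparisons with control may share control RNA, which the labels do not settle, and their values are given side by side. The 2 dye orientations correlated at 0.788 to 0.893 over all probes in the comparisons with CHX, but at only 0.134 and 0.216 after R1881 and at −0.0427 on the direct arrays, so values after R1881 alone carry more measurement error relative to their size.

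CHX gave the largest values. Against control, 24 of the 60 histone genes passed the test, 18 of them higher and 6 lower (limma, Benjamini-Hochberg adjusted p under 0.05 over all 14545 genes). H4 genes had the largest rises: 1.98 for H4C8, a 3.94-fold increase, and 1.79 for H4C6. The linker histone H1-2 had the largest fall, at −1.37 or 2.58-fold lower, and of the 6 linker genes it alone passed. Over all genes tested 20.5% rose and 17.4% fell. Among the histone genes 18 of 60 rose, a larger share than that of all genes, and 6 of 60 fell, a smaller share. The median over all 60 was 0.14, against 0.0022 over all genes. On all 4 arrays, 20 of 60 lay above 0 and 10 of 60 below, where all genes gave 28.3% and 26.5%.

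**Figure D1:**
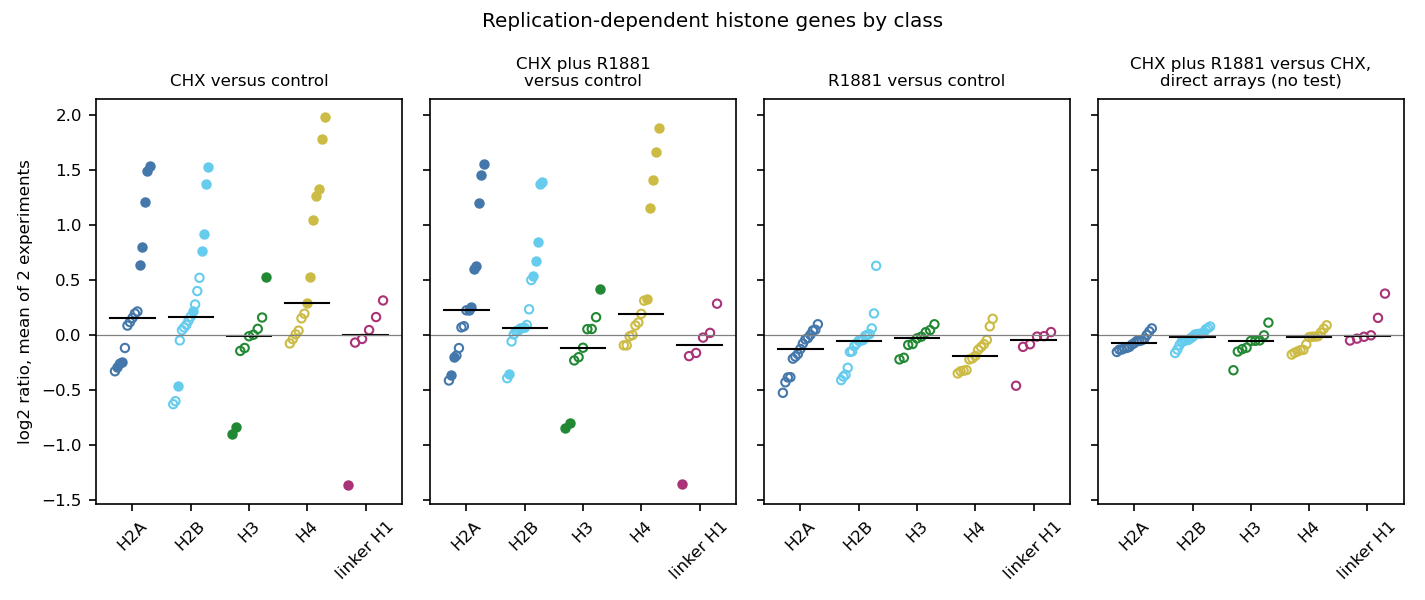
Log2 ratio of each of the 60 histone genes (vertical axis, treated over control, or CHX plus R1881 over CHX in the last panel) by histone class (horizontal axis), ordered within a class. Filled points passed the test, open points did not, and black lines are class medians. With CHX the highest value is that of H4C8 at 1.98 and the lowest that of H1-2 at −1.37, while with R1881 alone all but H2BC9 lie between −0.52 and 0.20.

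The promoters of 5 members that passed with CHX, and of H1-4, a linker gene that did not, are shown, as RefSeq gives them for GRCh38.p14, to show the motifs by which the promoters of the histone classes differ, which are counted further on. Each sequence is read 5′ to 3′ on the gene's strand and ends at the last base before the transcription start. Capitals mark CCAAT (bound by NF-Y), TATAAA (the core promoter box bound by TBP), ATTTGCAT (the octamer bound by POU2F1) and AAACACA (the H1 box of linker histone promoters), each on either strand.
H4C8: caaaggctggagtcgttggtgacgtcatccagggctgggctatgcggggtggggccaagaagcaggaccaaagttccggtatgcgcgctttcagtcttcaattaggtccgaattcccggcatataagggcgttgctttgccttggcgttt
H2BC5: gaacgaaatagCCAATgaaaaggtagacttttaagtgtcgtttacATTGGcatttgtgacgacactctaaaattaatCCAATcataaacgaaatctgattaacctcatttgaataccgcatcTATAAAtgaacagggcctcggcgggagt
H2AC6: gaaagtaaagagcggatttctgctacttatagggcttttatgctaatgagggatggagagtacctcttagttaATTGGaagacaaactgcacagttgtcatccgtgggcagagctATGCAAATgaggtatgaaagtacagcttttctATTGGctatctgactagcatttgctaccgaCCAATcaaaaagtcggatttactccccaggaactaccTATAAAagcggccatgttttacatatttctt
H1-2: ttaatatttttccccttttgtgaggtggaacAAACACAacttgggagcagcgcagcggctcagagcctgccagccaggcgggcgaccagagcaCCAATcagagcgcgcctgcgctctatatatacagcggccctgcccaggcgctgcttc
H1-4: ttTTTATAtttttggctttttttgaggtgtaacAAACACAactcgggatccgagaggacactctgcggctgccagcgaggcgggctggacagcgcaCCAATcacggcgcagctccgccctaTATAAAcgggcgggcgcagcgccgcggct
H3C3: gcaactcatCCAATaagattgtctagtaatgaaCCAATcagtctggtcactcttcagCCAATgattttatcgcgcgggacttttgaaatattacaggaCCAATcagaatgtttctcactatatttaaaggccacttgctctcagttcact

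These stretches lie at chr6:26285535-26285684 (minus strand) for H4C8, chr6:26157971-26158120 (plus strand) for H2BC5, chr6:26123927-26124171 (plus strand) for H2AC6, chr6:26056471-26056620 (minus strand) for H1-2, chr6:26156179-26156328 (plus strand) for H1-4 and chr6:26045234-26045383 (plus strand) for H3C3. The stretch of H2AC6 is 245 bases long and is all of the DNA between H2AC6 and the start of H2BC4, which is transcribed the other way. H1-2 fell with CHX and H1-4 did not pass the test. The H1 box begins 119 bases before the start of H1-2 and 117 bases before that of H1-4, and a CCAAT begins 57 and 54 bases before. H3C3, which fell, holds 4 copies of CCAAT in its 150 bases. H4C8, the gene with the largest rise, holds none of the 4 motifs in this window.

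Among the 13 H4 genes, which apart from H4C7 encode the same protein, 7 rose with CHX and 0 fell. Over all genes 20.5% rose and 17.4% fell. H4C8 had 2.04, 2.31, 1.63 and 1.93 on the 4 arrays, in the order experiment 1 with the treated RNA in Cy3 and in Cy5, then experiment 2 likewise. All 4 values lay far above 0, and the mean was 1.98 ± 0.28 (SD, n = 2, limma adjusted p = 3.60e-04). H4C6 had 1.93, 1.80, 1.60 and 1.81, with a mean of 1.79 ± 0.11 (limma adjusted p = 1.44e-04). The next were H4C9 at 1.32 ± 0.22, H4C5 at 1.27 ± 0.15 and H4C14 at 1.04 ± 0.0039. H4C7 at 0.52 ± 0.0056 and H4C11 at 0.29 ± 0.055 rose by less. The other 6 H4 genes lay between −0.076 and 0.19 and did not pass.

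Among the 15 H2A genes, whose proteins pair with H2B in the octamer, 5 rose and 2 fell, where all genes gave 20.5% and 17.4%. H2AC6 had 1.62, 1.85, 1.39 and 1.30 on the 4 arrays, and its mean was 1.54 ± 0.28 (limma adjusted p = 7.69e-04). H2AC16 reached 1.495 ± 0.22 and H2AC18 1.21 ± 0.12. The arrays of H2AC18 were 0.88, 1.71, 0.91 and 1.34, so that the arrays with the treated RNA in Cy5 were the higher in each experiment. H2AC8 at 0.80 ± 0.079 and H2AC12 at 0.64 ± 0.031 rose too. H2AC13 fell by 0.29 on the log2 scale and H2AC14 by 0.24, with adjusted p of 0.0126 and 0.0334 from limma. The other 8 had means from −0.33 to 0.21.

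Among the 17 H2B genes, 5 rose and 1 fell, where all genes gave 20.5% and 17.4%. H2BC5 had 1.64, 1.54, 1.46 and 1.46, close together, with a mean of 1.53 ± 0.092 (limma adjusted p = 1.14e-04). H2BC21 followed at 1.37 ± 0.33, H2BC15 at 0.92 ± 0.34 and H2BC3 at 0.77 ± 0.23. H2BC4 was called at 0.21 ± 0.12, with an adjusted p of 0.0478 just under the threshold. H2BC14 fell, at −0.46 ± 0.076. The 11 genes that did not pass ranged from −0.63 to 0.52. Several of these had arrays far apart: H2BC11 had −2.01, −0.084, −0.36 and 0.057, and H2BC9 had 0.17, 0.063, −0.19 and 1.56.

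Of the 9 H3 genes 1 rose and 2 fell, where all genes gave 20.5% and 17.4%. H3C3 fell on every array, with −0.91, −1.03, −0.76 and −0.90 and a mean of −0.90 ± 0.10 (limma adjusted p = 5.85e-04). H3C1 fell as evenly, with −0.72, −0.95, −0.75 and −0.92 and a mean of −0.83 (limma adjusted p = 4.51e-04). H3C4 rose, at 0.53 ± 0.13. The other 6 lay between −0.14 and 0.16 and did not pass. The class median was −0.011, against 0.29 for H4, 0.17 for H2B and 0.16 for H2A.

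Where 20.5% of all genes rose and 17.4% fell, H1-2 alone passed among the 6 linker histone genes in the fit of all arrays. It had −1.42, −1.52, −1.54 and −0.99, all far below 0, with a mean of −1.37 ± 0.14 (limma adjusted p = 2.02e-04). H1-4 had −0.035, H1-5 −0.068, H1-1 0.16 and H1-6, the testis form, 0.31. H1-3 had −0.39, −0.34, −0.058 and 0.97, which lie on both sides of 0. The smallest adjusted p among these 5 was 0.143, so a change of these genes was not shown at n = 2, which is not to say that there was none. H1-6 rose in 2 of 18 other settings, at 0.43 on the Cy5 arrays alone and at 0.59 without experiment 2, with 0.0117 as the lowest limma adjusted p over the settings and 0.873 as the highest. The linker median was 0.0050 and the core median 0.15. Without experiment 1 the linker median was −0.040, and without experiment 2 the core median was 0.058.

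**Figure D2:**
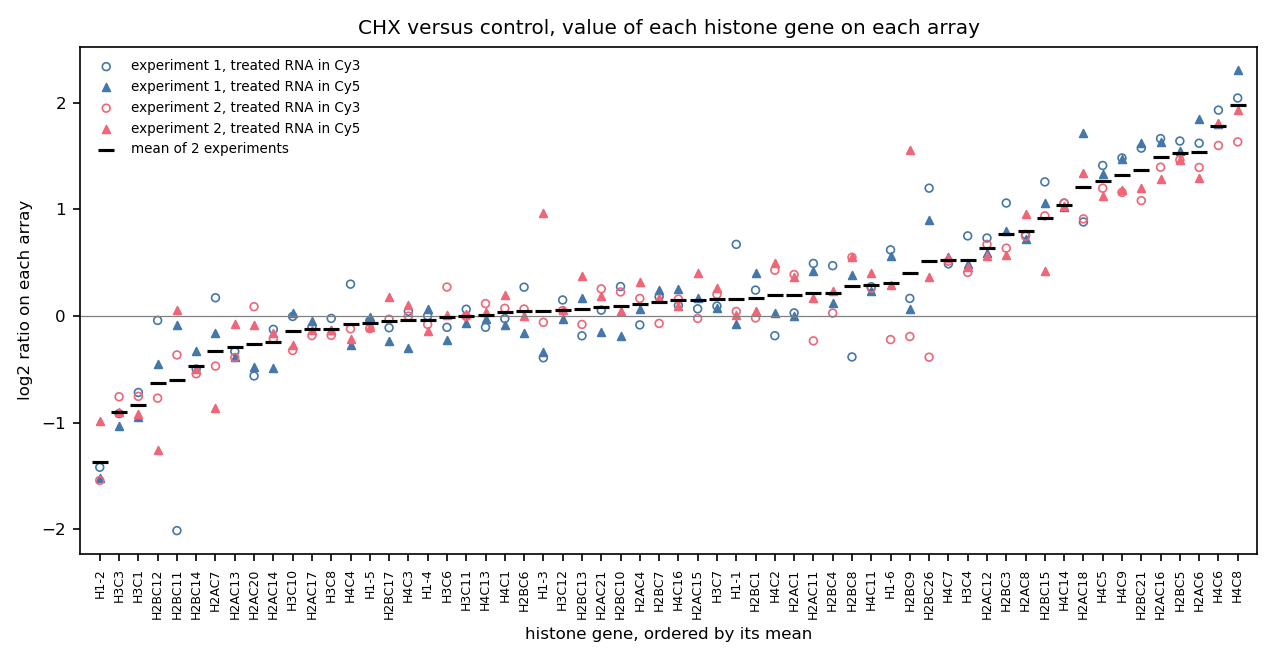
Log2 ratio of each histone gene on each of the 4 arrays that compared CHX with control (vertical axis), with genes ordered by their mean (horizontal axis). Blue is experiment 1 and red experiment 2, open circles have the treated RNA in Cy3 and triangles in Cy5, and bars are means. The means run from H1-2 at −1.37 to H4C8 at 1.98, both with all 4 arrays on 1 side of 0, while H2BC11, H2BC9 and H1-3 each have 1 array far from the rest.

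CHX together with R1881 also gave 24 calls against control, 18 higher and 6 lower, where 20.8% of all genes rose and 16.6% fell. H4C8 had 1.88 ± 0.32, H4C6 1.66 ± 0.091, H2AC6 1.56 ± 0.27, H2AC16 1.45 ± 0.16, H4C5 1.41 ± 0.18, H2BC5 1.39 ± 0.016, H2BC21 1.37 ± 0.16, H2AC18 1.20 ± 0.088 and H4C9 1.15 ± 0.048 (all SD, n = 2, with limma adjusted p of at most 7.38e-04). Smaller rises were those of H2BC15 at 0.84, H2BC3 at 0.68, H2AC12 at 0.63, H2AC8 at 0.60, H2BC8 at 0.54, H3C4 at 0.42, H4C7 at 0.33, H2AC4 at 0.26 and H2AC15 at 0.22. H1-2 again had the largest fall, with −1.44, −1.40, −1.59 and −0.98 on the 4 arrays and a mean of −1.35 ± 0.092 (limma adjusted p = 2.04e-04). H3C3 fell by 0.84 on the log2 scale, H3C1 by 0.80, H2AC13 by 0.36, H2BC14 by 0.36 and H2AC17 by 0.20.

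H4C14 had 1 array apart from the rest. With CHX alone its arrays read 1.06, 1.02, 1.06 and 1.03. With CHX plus R1881 they read 0.85, 0.75, −1.12 and 0.77, so that 1 array lay far below 0 and 3 above it. The mean was 0.31 ± 0.69, and the gene did not pass (limma adjusted p = 0.321). The treatments share 1 estimate of the spread, so this array also enters the adjusted p of H4C14 with CHX alone, 0.0131. H2BC4, H4C11 and H2AC14 also passed with CHX alone and not with CHX plus R1881, at 0.059, 0.087 and −0.12, and H2AC15, H2AC4, H2BC8 and H2AC17 the other way round. These 8 are not shown to differ between the comparisons: in the test of CHX plus R1881 against CHX 0 of the 60 genes passed. Of the other linker genes, H1-1, H1-3, H1-4, H1-5 and H1-6 lay between −0.19 and 0.29, and H1-6 rose in 1 of 18 other settings, at 0.34 on the Cy5 arrays alone (limma adjusted p = 0.0265, up to 0.704 over the settings). The linker median was −0.093 and the core median 0.084. Without experiment 1 they were 0.030 and 0.043, and without experiment 2 −0.17 and 0.16, so the sign of the linker median rests on 1 culture.

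Of the 24 calls in each comparison, 17 with CHX and 15 with CHX plus R1881 held in each of 17 other settings of the processing. With CHX those lost in some setting were H2AC13, H2AC14, H2BC4, H2BC15, H4C7, H4C11 and H4C14. H2BC4 was lost in 13 of the 17 settings and H2AC14 in 9, and the others in at most 5. With CHX plus R1881 they were H2AC4, H2AC8, H2AC15, H2AC17, H2BC8, H2BC14, H2BC15, H3C4 and H4C7. H2AC17 was lost in 12 of the 17 settings, H2AC15 in 9 and H2AC4 in 8, and the others in at most 6. None changed its direction. A further setting, a minimum change of 1.5-fold, leaves out 7 of the 24 and 8 of the 24.

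R1881 alone gave means between −0.52 and 0.63 for the histone genes. None of the 60 passed the test, in a comparison where 0.00688% of all genes rose (TMPRSS2) and 0.0% fell. Of the histone genes, 15 lay above 0 and 45 below, and the median was −0.083, against −0.00013 over all genes. On all 4 arrays 27 of 60 lay below 0 and 1, H3C7, above, where all genes gave 13.0% and 11.7%. At an unadjusted p under 0.05 in limma there were 15 of 60, 14 of them below 0, against 6.33% of all genes. Genes measured on the same arrays are not independent of each other, and the count of calls is 0 at the threshold used here.

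The lowest means after R1881 were those of H2AC7, H1-2, H2AC6, H2BC21 and H2AC18. H1-2 had −0.57, −0.28, −0.54 and −0.45 on the 4 arrays, all below 0, with a mean of −0.46 ± 0.051 (SD, n = 2) and the smallest adjusted p of the 60 (limma, 0.264). H2BC21 was as even, with −0.32, −0.38, −0.47 and −0.47 and a mean of −0.41 ± 0.084 (limma adjusted p = 0.627). H2AC7 had −0.52 ± 0.18, H2AC6 −0.43 ± 0.20 and H2AC18 −0.38 ± 0.076, and all 4 arrays of each lay below 0. The H4 genes had the lowest class median, −0.19, with 7 of 13 below 0 on every array, and H2A followed with −0.13 and 9 of 15 below 0 on every array. The medians of H2B at −0.052 and H3 at −0.031 were nearer 0.

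At the other end stood H2BC9, H2BC13, H4C3, H2AC20 and H3C7. H2BC9 had 0.91, 0.039, −0.25 and 1.81, whose mean of 0.63 came from 2 of the arrays: the 2 dye orientations of experiment 2 differed by 2.06. The same spot differed by 1.75 between the dye orientations of experiment 2 with CHX. H2BC13 had 0.20, H4C3 0.15, H2AC20 0.098 and H3C7 0.098. Among the linker genes H1-1 had −0.11, H1-3 0.027, H1-4 −0.014, H1-5 −0.084 and H1-6 −0.0097. The linker median was −0.049, or −0.15 without experiment 2, and the core median −0.086.

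**Figure D3:**
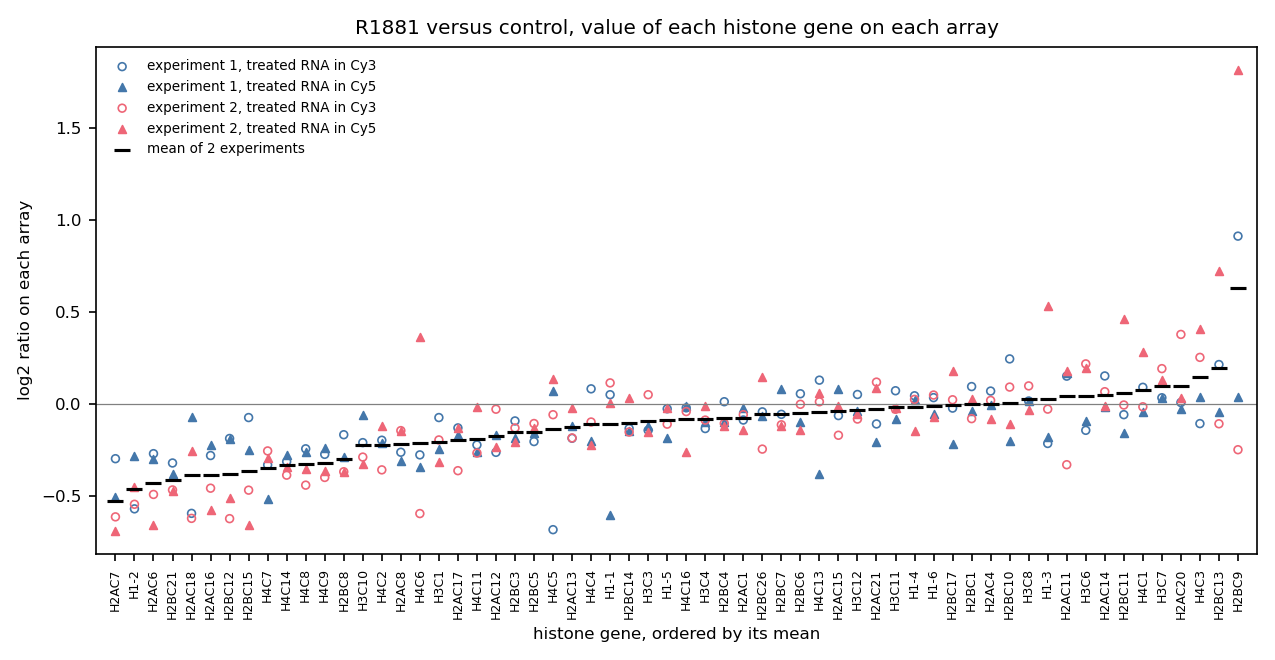
Log2 ratio of each histone gene on each of the 4 arrays that compared R1881 with control (vertical axis), with genes ordered by their mean (horizontal axis) and symbols as for CHX. Most genes lie a little below 0, 27 of 60 on all 4 arrays, and H2BC9 at the right end has arrays from −0.25 to 1.81.

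The count of 0 after R1881 depends on how the arrays are put on a common scale. It was 13 when all arrays were forced to the same distribution, with 12 of these genes below 0, and 744 of all genes (5.12%) passed then. That step widens the R1881 arrays toward the CHX arrays, and the SD of the mean over all genes went from 0.134 to 0.314.

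The effect of R1881 on top of CHX, from the difference between CHX plus R1881 and CHX, did not pass for any histone gene, and 0.0% of all genes rose and 0.0% fell (limma). At an unadjusted p under 0.05 there were 0 of 60, against 1.28% of all genes. The test takes the cultures of both treatments as independent, although deviations of same-numbered cultures correlated at 0.564. This can make it too strict, so the absence of calls does not show that R1881 had no effect here. The lowest means were H4C14 at −0.73, H2BC9 at −0.33, H4C11 at −0.21, H2AC8 at −0.20 and H4C2 at −0.19. The highest were H2BC11 at 0.69, H2BC8 at 0.26, H2BC12 at 0.24, H4C1 at 0.15 and H4C5 at 0.14. The values of H4C14, H2BC9 and H2BC11 rest on the arrays with the wide dye gaps given above. H1-2 had 0.014 ± 0.052 here, and the other linker genes lay between −0.16 and −0.029. The linker median was −0.081 and the core median −0.025, against 0.011 over all genes. Without experiment 2 of CHX plus R1881 the core median was 0.016, on the other side of 0.

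The 2 direct arrays of CHX plus R1881 against CHX, which have no replicate and no test, gave a median of −0.047 over the 60 genes and 0.0018 over all genes. Both arrays lay above 0 for 8 of 60 histone genes and below 0 for 28 of 60, where all genes gave 26.3% and 25.4%. H4C8 had −0.19 and −0.16 and H2BC21 −0.23 and −0.096, in the order Cy3 and Cy5 for the RNA with R1881. H1-2 had −0.061 and −0.038, and H1-1 had 0.86 and −0.11, which differ in sign. The core median was −0.050 and the linker median −0.0088.

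The test of whether R1881 acted differently without and with CHX also gave 0 calls among the histone genes, and 0.0% of all genes passed above 0 and 0.0% below (limma). At an unadjusted p under 0.05 there were 3 of 60, against 2.45% of all genes. These were chosen for naming after their values were seen. H1-2 had −0.46 with R1881 alone and 0.014 in the presence of CHX, a difference of −0.47 (limma adjusted p = 1.00). H2AC18 had a difference of −0.38, and H2BC9, with its wide dye gap, 0.96. By the size of the difference the lowest 5 were H2AC7 at −0.67, H2BC11 at −0.63, H2BC12 at −0.61, H2BC8 at −0.56 and H1-2. The highest 5 were H2BC9, H4C14 at 0.40, H2AC20 at 0.25, H2BC13 at 0.23 and H4C3 at 0.20.

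Side by side over the 4 comparisons, the core median was 0.15 with CHX, 0.084 with CHX plus R1881, −0.086 with R1881 and −0.050 on the direct arrays. The linker median was 0.0050, −0.093, −0.049 and −0.0088 in the same order. With CHX 18 of 54 core genes rose and 5 fell, and 0 of 6 linker genes rose and 1 fell. With CHX plus R1881 these counts were the same. Over all genes 20.5% rose and 17.4% fell with CHX, and 20.8% and 16.6% with CHX plus R1881. Among only 6 genes such shares give few calls either way. The difference between core and linker genes was not tested, since the genes of a class are not replicates and 6 linker genes, of which 5 did not pass, give little to compare.

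The members lie in clusters, and the CHX values varied within the 4 larger ones, whose counts stand against 20.5% of all genes that rose and 17.4% that fell. On chromosome 6 of GRCh38.p14, 31 genes between 26017032 and 26285534 gave 10 rises and 3 falls with a median of 0.16. In the stretch from 27807479 to 27893891, 15 genes gave 3 rises and 3 falls with a median of 0.0030, and in that from 27132316 to 27147562, 5 genes gave 2 rises and 0 falls. On chromosome 1, 5 genes between 149832657 and 149887965 gave 3 rises and 0 falls, with a median of 1.04. The largest rise and the largest fall, H4C8 at 26285126 to 26285534 and H1-2 at 26055740 to 26056470, are both in the first of these stretches.

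Many H2A and H2B genes stand head to head and share the DNA between their starts, as the sequence printed for H2AC6 shows. There were 10 such pairs with both genes measured and both strands available, with 193 to 247 bases between the starts. H2BC12 and H2AC12 also lie side by side but are not among them, because the strand of H2AC12 was not available here. H2AC12 rose by 0.64 with CHX, while H2BC12 had −0.63 and did not pass. Among the 10 pairs, both genes rose with CHX in 1, both fell in 1, 1 gene of the pair passed in 4, and neither passed in 4. Over all genes 20.5% rose and 17.4% fell. Unrelated gene pairs were not counted, so these counts are not a result about the shared DNA. The pairs called together were H2AC6 with H2BC4 and H2AC14 with H2BC14. Each rests on a weak call: of 17 other settings, H2BC4 lost its call in 13 and H2AC14 in 9. In 0 pairs were the genes called in opposite directions. In 5 of the 10 pairs the means were more than 0.5 apart. The widest gap was that of H2AC20 at −0.26 ± 0.37 and H2BC21 at 1.37 ± 0.33. In the pair whose shared region is printed, H2AC6 rose by 1.54 and H2BC4 by 0.21. H2AC1 and H2BC1, the testis forms, had 0.20 and 0.17, the closest pair, and neither passed.

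**Figure D4:**
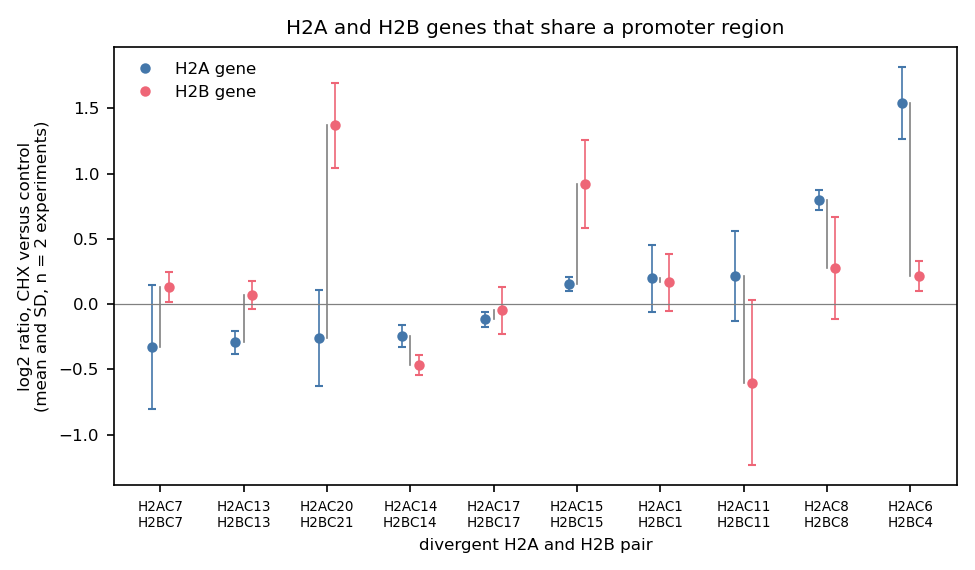
Log2 ratio with CHX against control (vertical axis, mean of 2 experiments with SD) for the H2A gene (blue) and the H2B gene (red). The 10 divergent pairs with both strands available (horizontal axis) are ordered by the H2A value. Grey lines join the genes of a pair. The genes of a pair are far apart for H2AC20 and H2BC21, for H2AC6 and H2BC4, for H2AC11 and H2BC11 (where 1 array of H2BC11 lay far from the rest) and for H2AC15 and H2BC15.

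The 250 bases before the start were found in the RefSeq table for 55 of the 60 genes, without H2AC12, H3C11, H3C12, H4C1 and H4C3. Counting either strand, 85.5% held CCAAT, against 32.0% of 34943 promoters in the table, and 65.5% held TATAAA, against 10.8%. ATTTGCAT was found in 45.5%, against 1.63%. It was present in 11 of 14 H2A and 13 of 17 H2B promoters, 1 of 7 for H3, 0 of 11 for H4 and 0 of 6 for H1. AAACACA was found in 6 of 6 linker promoters and in none of the 49 core promoters, against 4.83% of the table. CCAAT was present in 3 of 11 H4 promoters, and in every promoter of the other classes. Among the genes that rose with CHX CCAAT was found in 12 of 17, among those that fell in 6 of 6 and among the rest in 29 of 32, and 7 of the genes that rose are H4 genes. These are matches of letters, not measured binding sites.

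Near-identical copies limit what a probe can tell apart. Probe sequences were not used here, so cross-hybridisation could not be measured, and a value given for a gene may include RNA of its paralogs. H2AC18 and H4C14 each have a duplicate on chromosome 1 that encodes the same protein, and their values cannot be assigned to 1 copy. The H4 probes did not all read alike, although most H4 genes encode the same protein: with CHX their means ran from −0.076 to 1.98. Members with several probes give a further look. The 3 probes of H2BC5 had 0.86, 2.11 and 1.62 with CHX, the 2 of H4C11 (listed as HIST1H4J and HIST1H4K) 0.31 and 0.28, and the 2 of H4C16 0.16 and 0.15. The 2 of H1-4 had −0.13 and 0.062. H3C4 was named from 2 probes that the platform lists as HIST1H3D and HIST1H3B with the same accession, and these had 0.94 and 0.12, so its call rests on the first. HIST1H3B is an older symbol of H3C2 and HIST1H4K of H4C12, so for these probes the symbol and the accession of the platform disagree, and the accession was followed. Some members also overlap on the genome. H3C4 and H2AC7 share 510 bases on the same strand, and H2BC12 and H4C9 share 397 bases on opposite strands. The means with CHX were 0.53 for H3C4 and −0.33 for H2AC7, and −0.63 for H2BC12 and 1.32 for H4C9.

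The RNA was amplified before labelling with a kit that, as is generally known of it, primes on poly(A) tails. How much of each histone message carried such a tail, and the part of this in the results, was not tested. RefSeq spans longer than 1000 bases, which hold more than the short intronless gene, belong to H2BC4, H2BC5, H2BC12, H2BC21, H3C4 and H3C6. Their median with CHX was 0.37, against 0.12 for the other 54, and they ran from −0.63 to 1.53.

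Lists of other genes of the same process gave the following values. Their counts with CHX stand against 20.5% of all genes that rose and 17.4% that fell. With CHX plus R1881 these shares were 20.8% and 16.6%. Of 27 measured S phase genes, which copy DNA or supply its building blocks, 18 fell and 1 rose with CHX, and the median was −0.86. RRM2, a subunit of ribonucleotide reductase, had −2.80 ± 0.42, GMNN, an inhibitor of repeated replication, −1.45 ± 0.13, PCNA, the sliding clamp, −1.18 ± 0.028 and RRM1 −1.31 ± 0.087 (limma adjusted p of at most 4.33e-04). After R1881 27 of 27 lay above 0, 22 of them on all 4 arrays, where all genes gave 49.96% and 11.7%. The median was 0.35, while 0 passed the test. Genes of a list, measured on the same arrays, are not independent of each other. CDC45 had 0.65 ± 0.073, MCM4 0.51 ± 0.20, TYMS 0.40 ± 0.025 and ORC1 0.38 ± 0.13, with limma adjusted p from 0.237 to 0.352. In the presence of CHX the R1881 median of these genes was 0.025. In bulk RNA, fewer cells in S phase and less RNA per cell cannot be told apart, and the part of the cell cycle in the histone values was not tested.

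Of 23 measured genes for the production and decay of histone mRNA, 9 rose and 2 fell with CHX, with a median of 0.20. SLBP had 0.92 ± 0.080 (limma adjusted p = 3.95e-04), and NPAT 0.20 ± 0.031 (limma adjusted p = 0.0351). HINFP, which activates H4 genes, had 0.83 ± 0.23, and NELFE, a subunit of the negative elongation factor, had 0.62 ± 0.056. MBD2, a methylated DNA binding protein, had 1.18 ± 0.25. It was counted because it was put on the list, and a direct part of MBD2 in this process is not shown here. After R1881 the median was 0.10 and 0 passed. SLBP stood highest there, at 0.39 ± 0.046 (limma adjusted p = 0.307), and NPAT had 0.083 ± 0.028. With CHX plus R1881 7 rose and 3 fell, SLBP among them at 1.00 ± 0.11.

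The replication-independent variants, which are made outside S phase too and replace core histones in particular places, numbered 13 measured genes. With CHX 3 rose and 4 fell. H2AX, whose phosphorylation marks DNA breaks, had −1.36 ± 0.077, H2AZ1 −1.09 ± 0.036 and H3-3A, an H3.3 gene, −0.79 ± 0.35. H2AZ2 rose by 0.74 and H2AJ by 0.31. H3-3B, the other H3.3 gene, had 0.13 ± 0.046 and did not pass. After R1881 0 of 13 passed, with H2AX at 0.25, H2AZ1 at 0.10, H3-3A at −0.26 and H3-3B at 0.11. With CHX plus R1881 4 rose and 3 fell.

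Of 21 histone chaperones and their partners, which escort histones to DNA, 2 rose and 10 fell with CHX, with a median of −0.32. NASP, which holds H3 and H4 and also H1, had −1.02 ± 0.075, CHAF1B, a subunit of the CAF-1 complex that deposits H3 and H4 behind the fork, −0.97 ± 0.15, and CABIN1 −0.67 ± 0.026. UBN1, which like CABIN1 belongs to the HIRA complex, rose by 1.08. After R1881 18 of 21 lay above 0, where 49.96% of all genes did, with a median of 0.16, and 0 passed. With CHX plus R1881 3 rose and 9 fell.

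**Figure D5:**
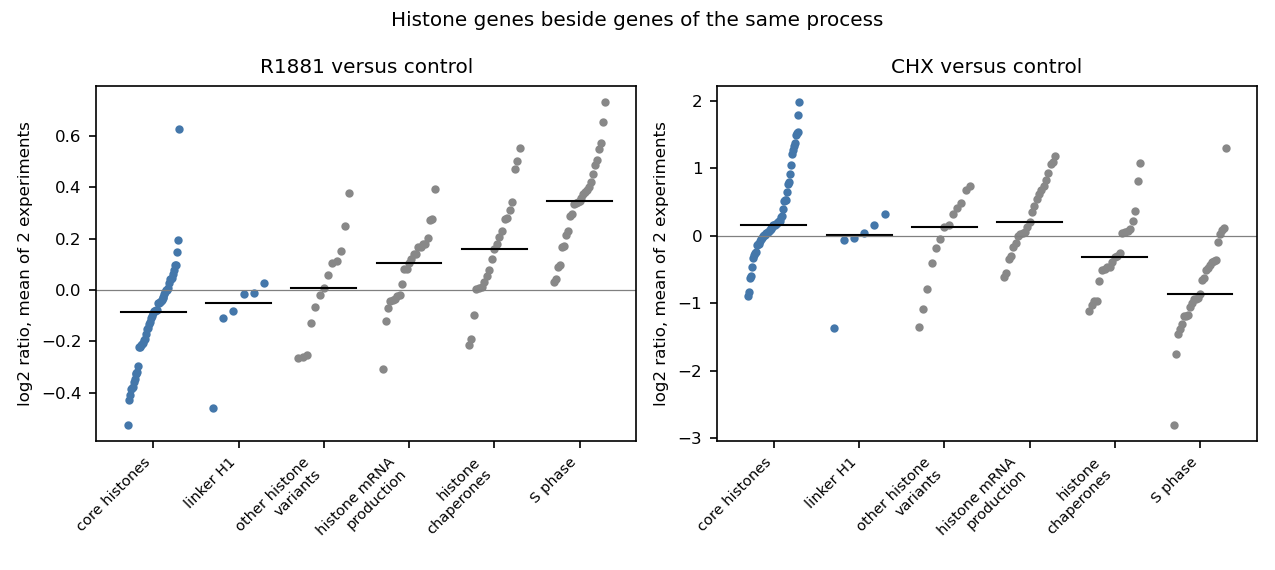
Log2 ratio (vertical axis, mean of 2 experiments) of each core and linker histone gene (blue) and of the genes of 4 related lists (grey) with R1881 (left) and CHX (right) against control, with black lines at the medians and different vertical scales. After R1881 the S phase genes all lie above 0 with a median of 0.35 and the core histones have −0.086. With CHX the S phase median is −0.86 and the core histone median 0.15.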

How the data were processed

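RNA of LNCaP cells was measured on 14 two-colour arrays. The deposited values, 1 per probe and array, were taken as log2 ratios; the base, the image analysis, the background correction and the normalization are not given in the sources used here. The number of arrays, not a depth, limits the precision. Probes were named through their accession and a RefSeq gene table of GRCh38.p14, or through the platform's symbol; probes of 1 gene were averaged. The sign was turned, and the dye orientations of a culture experiment were averaged, which leaves 6 log ratios. The limma package (3.58.1, under R 4.3.3) fitted all 14545 genes at once, each treatment as its own coefficient, and p-values were adjusted by Benjamini-Hochberg at 0.05. Log ratios are treated as independent. The p-values rest on the spread between cultures of the same treatment, with n = 2 each, pooled over the 3 treatments (3 residual degrees of freedom). This spread is drawn toward that of all genes (2.569 prior degrees of freedom), so it differs from the SD printed for 1 treatment. The steps were tested on simulated data.

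The members and lists were chosen with earlier results of these data known. Named are all linker genes, all core genes called, or else the 5 highest and 5 lowest, and of each other list up to 4 with the smallest p, plus SLBP, NPAT, H2AX, H2AZ1, H3-3A, H3-3B, KLK3, KLK2, TMPRSS2 and FKBP5; 1 other gene of the rule is not reported here. The list of androgen-induced genes set the sign. As deposited, 24 immediate-early genes had a median of −1.15 with CHX, and 19 of them lay below 0. Alternatives varied the dye orientation, scaling, probe naming, fit and culture experiments.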

Additional observations from a re-analysis of the deposited data

Results flagged for a closer look

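In 5 of 73 named values, 1 of the 4 arrays stood apart from the other arrays of its comparison by more than Dixon's 95% critical value allows, and chance gives about 1 in 20. After R1881, H1-1 had −0.600 in experiment 1 with the treated RNA in Cy5, while its other arrays lay from 0.0054 to 0.12. H1-4 had −0.147 in experiment 2 with Cy5, against 0.021 to 0.045. H2AC20 had 0.378 in experiment 2 with Cy3, against −0.024 to 0.031. With CHX, H1-1 had 0.672 in experiment 1 with Cy3, against −0.071 to 0.044. With CHX plus R1881, H3C3 had −0.603 in experiment 2 with Cy3, against −0.95 to −0.89 on the others. All 4 arrays of H3C3 lay below 0 there. The 73 values are those of the linker genes and the called core genes, or else the 5 highest and 5 lowest. H4C14 did not pass with CHX plus R1881 and so was not put to this check. Its array at −1.12, against 0.75 to 0.85 on the others, stands apart too.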

How the results depend on the processing

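The CHX count of 24 ranged from 17 to 28 over the alternatives and the CHX plus R1881 count from 16 to 27, within 1.5 times throughout, and no named value that passed changed its sign. After R1881 the count of 0 became 2 with the 12 arrays fitted with the dye swap as a random block (H2BC21 and H4C7), 3 with the arrays scaled to one spread (H1-2, H2AC18 and H2BC9) and 13 with quantile normalization. The core median after R1881 was −0.110 on the Cy3 arrays alone, −0.114 on the Cy5 arrays, −0.151 scaled and −0.192 with quantile normalization. The linker median with CHX was −0.059 on the Cy3 arrays and −0.032 on the Cy5 arrays, and with CHX plus R1881 −0.223 and −0.0041. Leaving out 1 culture experiment at a time gave core medians from −0.127 to −0.086 after R1881, 0.058 to 0.154 with CHX, 0.043 to 0.157 with CHX plus R1881 and −0.072 to 0.016 for R1881 in the presence of CHX. It gave linker medians from −0.150 to −0.035 after R1881, −0.040 to 0.0054 with CHX, −0.172 to 0.0295 with CHX plus R1881 and −0.182 to −0.018 for R1881 in the presence of CHX. Without experiment 2, the core median with CHX was 0.058. The causes of these shifts were not tested.

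The groups share culture numbers 1 and 2, which the labels do not tie to a batch. Deviations of same-numbered cultures correlated at 0.166 to 0.564. With the culture number as a replicate block the histone counts were 0, 28, 27, 0 and 0, for R1881, CHX, CHX plus R1881, R1881 in the presence of CHX and the difference of the R1881 responses. The signal over background, which would limit dim probes, was not used here.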
